A study of Mus musculus with 2 samples.

Results

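Principal cells of the collecting duct were taken from single-cell RNA libraries of injured mouse kidney as the cells that held at least 10 unique molecular identifiers (UMIs, each 1 counted RNA molecule) of Aqp2 and Fxyd4 together. Cells with 5 or more UMIs of Slc12a1, 5 or more of Slc12a3, 2 or more of Atp6v1g3 or any of Ptprc were left out. These limits are aimed at thick limb, distal convoluted, intercalated and white blood cells, and need not remove all of them. Of 706 control and 646 haplodeficient cells with at least 10 UMIs of Aqp2 and Fxyd4, the limits removed 404 and 354. Most met the Atp6v1g3 limit (321 and 259) or the Ptprc limit (194 and 206), and a cell could meet several. The gate held 594 of 19478 retained cells. They numbered 302 of 9452 in the control library (3.20%, exact 95% interval 2.85 to 3.57) and 292 of 10026 in the haplodeficient library (2.91%, 2.59 to 3.26). Both libraries came from kidneys collected at day 14 after ischaemia and reperfusion, induced by clamping 1 renal artery, with 4 tamoxifen injections. Control mice were Cre-, and haplodeficient mice were Cdh5-CreERT2; Phd3f/+, with a tamoxifen-dependent Cre under the promoter of an endothelial cadherin gene and 1 floxed allele of Phd3, a gene also named Egln3. The labels give neither the age of the mice, the number of animals behind a library, nor whether the Cre- mice carried the floxed allele. With 1 library per group there was no replicate and no test between groups, and every interval below covers counting error only.

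Principal cells are the water- and sodium-absorbing cells of the connecting tubule and collecting duct. Vasopressin, acting through the receptor encoded by Avpr2 and cyclic AMP, moves the water channel aquaporin 2 into the luminal membrane, and aquaporins 3 and 4 let the water leave on the blood side. Aldosterone, acting through the mineralocorticoid receptor, opens the way for sodium through the epithelial channel ENaC, while the enzyme encoded by Hsd11b2 keeps glucocorticoids off that receptor. In injured kidney, distal tubule cells also make secreted defence proteins and chemokines, which attract white blood cells, and respond to interferon.

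The retained cells had a median of 9160 UMIs (control) and 5861.5 UMIs (haplodeficient), but cells of the principal gate were of like depth, with a median of 10081.5 UMIs (1305 to 70834) and 10491 (2014 to 70794). Mitochondrial transcripts made up a median of 9.40% of UMIs in control and 5.29% in haplodeficient cells. Likely doublets, marked but kept, were 25 and 16 of the gated cells. No barcode was in the gate in both libraries, and 28 barcodes were retained in both. Free RNA, read from barcodes of at most 100 UMIs, accounted for an estimated 10.4% and 8.43% of the gated cells' UMIs. Egln3, the targeted gene (chromosome 12, 54178981 to 54203860, minus strand, GRCm38), held 39 and 37 UMIs in these cells. That was 9.13 and 9.04 CPM, the counts in the cells' summed UMIs scaled to a total of 1000000, a ratio of 0.99 (0.61 to 1.59), so the deletion in endothelium was not checked by these epithelial cells.

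The gate was first set against the marker list of principal cells. Against all other retained cells, and ranked by the lower of the libraries' log2 ratios, its leading genes were Aqp2, Fxyd4, Spink8, Sprr2f and Aqp4. The water channel gene Aqp4, the aldosterone-pathway gene Hsd11b2 and the ENaC subunit gene Scnn1g, none used to choose the cells, were among the first 15. So was the connecting tubule gene Trpv5, which ranked above Hsd11b2 and Scnn1g. Of the other listed markers, Aqp3, Scnn1b and Gata3 were not among the 15, and Avpr2 and Elf5 averaged under 50 CPM. In the haplodeficient library 62.0% of the gated cells had no Aqp2 UMI. The label of principal cells of the collecting duct therefore held only in part for the gate. Most of its cells also carried calcium-transport genes that mark the connecting tubule: 258 of 302 control cells (85.4%, 80.9 to 89.2) and 224 of 292 haplodeficient cells (76.7%, 71.4 to 81.4) had at least 3 UMIs of Calb1, Slc8a1 and Trpv5 together. The same count was reached by 42.7% and 31.3% of cells gated as macrophages, mainly through Slc8a1. After thinning every cell to 2000 UMIs, Trpv5, a luminal calcium channel gene, was detected in 43.3% and 33.7% of gated cells against 1.21% and 0.80% of macrophage-gate cells, so Trpv5 was well above the background of free RNA.

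Aqp2, on chromosome 15 (99579055 to 99584547, plus strand), was used to choose the cells, so its level is a description. It held 6980 UMIs in the control gate and 970 in the haplodeficient gate, or 1634 and 237 CPM, a ratio of 0.145 (0.135 to 0.155). The control cells had a median of 10 Aqp2 UMIs (0 to 430) and the haplodeficient cells a median of 0 (0 to 92). Fxyd4, which encodes a small regulator of the sodium pump and lies on chromosome 6 (117933559 to 117937692, minus strand), had a median of 19 UMIs (0 to 195) and 22 (5 to 178). No Aqp2 UMI was held by 44 control and 181 haplodeficient cells, which entered the gate through Fxyd4. In the plot of UMIs per cell the Aqp2 curves stand far apart and the Fxyd4 curves nearly coincide. Just inside the gate, at 10 to 11 UMIs, 19 control and 27 haplodeficient cells had 218 and 25.04 CPM of Aqp2 and 1107 and 1234 CPM of Hsd11b2. Just outside it, at 8 to 9 UMIs, 27 and 36 cells had 124 and 46.3 CPM of Aqp2 and 601 and 720 CPM of Hsd11b2.

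**Figure D1:**
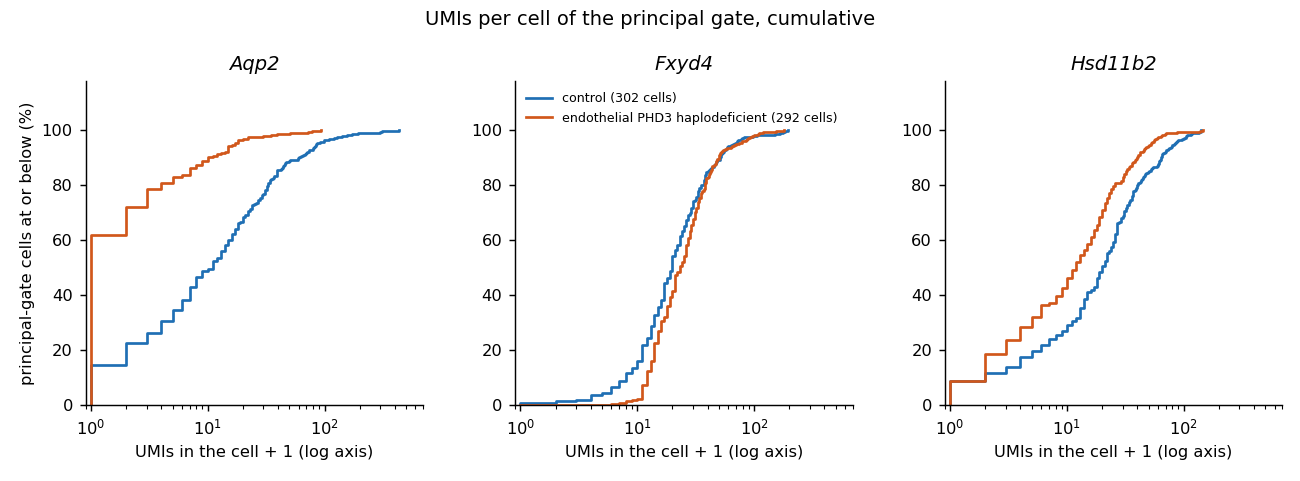
Cumulative share of principal-gate cells (y axis, percent) with at most a given number of UMIs (x axis, UMIs + 1, log axis) of Aqp2, Fxyd4 and Hsd11b2, in 302 control and 292 haplodeficient cells. The Aqp2 curve of the haplodeficient cells starts at 62.0% without a UMI, against 14.6% in the control cells, while the Fxyd4 curves lie close together.

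Because the gate used Aqp2, the same gene was read in cells chosen without it, a check added after the data were seen. Cells with at least 5 UMIs of Hsd11b2 in place of the Aqp2 and Fxyd4 sum numbered 342 and 318. Their Aqp2 level was 1402 CPM in control and 159 CPM in haplodeficient cells, a ratio of 0.113 (0.105 to 0.123), and 26.0% and 74.2% of them had no Aqp2 UMI. Cells chosen on at least 10 UMIs of Fxyd4 alone gave 1640.2 and 219 CPM of Aqp2, a ratio of 0.133 (0.124 to 0.143). The lower Aqp2 level of the haplodeficient library was therefore as large in cells that Aqp2 had no part in choosing. Thinned to 2000 UMIs, Aqp2 was detected in 66.8% of control and 21.1% of haplodeficient gated cells, against 1.85% and 0.21% in macrophage-gate cells, whose median depths were 5685.5 and 6691 UMIs.

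Across all genes, 3719 averaged 50 CPM or more over the libraries with 30 or more UMIs in the gated cells, and their median log2 ratio, haplodeficient over control with 5 CPM added to each, was 0.01. A gene was called where that ratio was at least 1 in size and the exact 95% Poisson intervals did not overlap. This took in 43 genes that were higher in the haplodeficient library (1.16% of those measured) and 67 that were lower (1.8%). With mitochondrial UMIs left out of the total, the split was 33 higher and 102 lower. An interval of the ratio that lay wholly above 1 was far more common (35.3%), as was one wholly below 1 (33.1%), so such a count is read against those shares.

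The water list held 20 genes of vasopressin signalling, water channels and urea transport, of which 11 had enough counts. Of these, 9 were lower and 2 higher in the haplodeficient library, where 50.8% of all genes were higher, and 4 were called lower and none higher. The list median was -0.17 on the log2 scale. Aqp2, which the gate used, is in this list, and without it 8 of 10 genes were lower, 3 were called and the median was -0.16. Aqp3, the basolateral channel that also passes glycerol (chromosome 4, 41092722 to 41098183, minus strand), was at 405 CPM in control and 51.1 CPM in haplodeficient cells, from 1731 and 209 UMIs, a ratio of 0.126 (0.109 to 0.146). Aqp4, the other basolateral water channel gene, was at 132 and 63.3 CPM, a ratio of 0.481. The vasopressin receptor gene Avpr2 was at 61.1 and 35.9 CPM, with a ratio of 0.588 (0.477 to 0.722), which lay below 1 but did not reach the size rule. Slc14a2, the vasopressin-regulated urea transporter gene of the inner medullary duct, was at 126 and 47.4 CPM, although 11.6% and 10.96% of cells held a UMI of it. Signalling genes of the same list differed among themselves: Gnas, the stimulatory G protein that links the receptor to adenylyl cyclase, had a ratio of 1.16, while Pde4d, a cyclic AMP phosphodiesterase gene, had one of 0.53. Mal, which encodes an apical trafficking protein, was higher, at 1251 and 1524 CPM.

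Thinned to 2000 UMIs, Aqp3 was detected in 39.7% of control and 9.03% of haplodeficient gated cells, against 1.00% and 0.21% of macrophage-gate cells. The 11 osmolyte genes, which handle sorbitol, betaine, taurine and related solutes in the hypertonic medulla, gave no call among the 7 with enough counts, and their median was -0.22. Akr1b3, which encodes aldose reductase, and Slc6a6, the taurine transporter gene, each had a ratio of 0.72, and the heat-shock gene Hspb1 had one of 1.94.

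The sodium list held 27 genes of ENaC, aldosterone action, the sodium pump and potassium secretion. Of the 20 with enough counts, 17 were lower and 3 higher in the haplodeficient library, with a median of -0.64, and 2 were called lower, the potassium channel genes Kcnj1 and Kcnj10. Fxyd4, a gene of the gate, is 1 of the 3 higher genes, and without it 17 of 19 were lower and the median was -0.65. The interval of the ratio lay below 1 for 15 of the 20 genes and above 1 for 2. Among the ENaC subunits, Scnn1a was at 128 CPM in control and 123 CPM in haplodeficient cells, a ratio of 0.96 (0.85 to 1.09). Scnn1b was at 318 and 190.0 CPM, with a ratio of 0.596 (0.545 to 0.651), and Scnn1g was at 195 and 123 CPM, a ratio of 0.629. The alpha subunit was thus level in the gate as a whole while the beta and gamma subunits were lower.

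For the aldosterone pathway, Nr3c2, the mineralocorticoid receptor gene, was at 444 CPM in control and 227 CPM in haplodeficient cells. Hsd11b2 (chromosome 8, 105518755 to 105523988, plus strand) was at 1847 and 1140 CPM, with a ratio of 0.617 (0.595 to 0.640). Nedd4l, a ubiquitin ligase that removes ENaC from the membrane, was at 765 and 434 CPM. These 3 genes act on opposite sides of ENaC activity, and all were at the lower level in the haplodeficient library. Kcnj1, the secretory potassium channel ROMK, was at 180 and 83.3 CPM, and Kcnj10, a basolateral potassium channel gene, at 93.9 and 44.0 CPM. Atp1b1, the beta subunit gene of the sodium pump, was at 2160 and 1226 CPM. Klk1, which encodes the tissue kallikrein of the connecting tubule, was at 1419 and 744 CPM and was detected in 30.5% and 31.2% of cells. Fxyd4, chosen by the gate, was at 1799 and 1994 CPM.

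**Figure D2:**
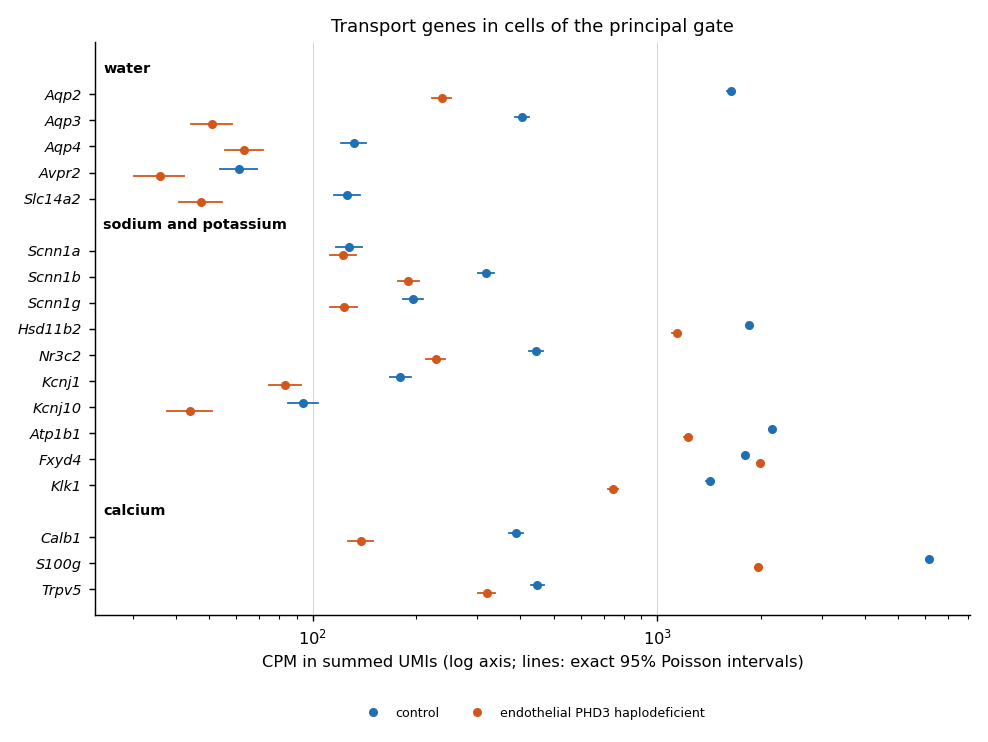
CPM in summed UMIs of principal-gate cells (x axis, log axis) for genes of water, sodium and potassium, and calcium transport, with points for the control and haplodeficient libraries and lines for exact 95% Poisson intervals. Aqp2 and Aqp3 have the widest gaps, Scnn1a overlaps between libraries, and Fxyd4 is the 1 gene shown at a higher level in the haplodeficient library; Aqp2 and Fxyd4 chose the cells.

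Calcium-transport genes of the connecting tubule were lower as well, with 5 of 5 measured genes below 0, 3 called lower and a median of -1.46. S100g, the calcium-binding protein calbindin-D9k, was at 6146 CPM in control and 1968 CPM in haplodeficient cells. Calb1, the larger calbindin, was at 389 and 138 CPM, and Kl, which encodes the FGF23 co-receptor klotho, at 224 and 78.4 CPM. Trpv5 was at 449 and 320 CPM and was not called. Fewer connecting tubule cells in the gate and less of these RNAs per cell cannot be told apart here. Among cells with the 3 or more connecting tubule UMIs defined above, the Aqp2 ratio was 0.10, and among the 44 control and 68 haplodeficient cells without them it was 0.46 (0.40 to 0.52).

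Transcription factors of the collecting duct gave 10 genes below 0 and 2 above among 12 measured, with no call and a median of -0.46. Gata3, a determinant of the duct lineage, was at 263 CPM in control and 167 CPM in haplodeficient cells, and Tfap2b and Gata2, both distal nephron regulators, had ratios of 0.59 and 0.67. The principal cell factor gene Elf5 was at 45.9 and 21.7 CPM. Junction and keratin genes went the other way, with 13 of 17 above 0, 1 called higher and a median of 0.25. Cldn3, a tight junction gene, was called, at 255 and 579 CPM. Krt18, a keratin of simple epithelia, had a ratio of 1.85.

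Since the Aqp2 level split the gate, its cells were grouped by their own Aqp2 UMIs, classes that were set after the data were seen and are ranges rather than cell types. No Aqp2 UMI was found in 44 control cells (14.6%, 10.8 to 19.1) and 181 haplodeficient cells (62.0%, 56.1 to 67.6). One or 2 UMIs were found in 35 and 49 cells, and 3 to 9 in 71 and 34. At least 10 UMIs were found in 152 control cells (50.3%, 44.5 to 56.1) and 28 haplodeficient cells (9.59%, 6.47 to 13.6). The largest class was thus the top one among control cells and the bottom one among haplodeficient cells. Aqp3 followed the classes in both: from no Aqp2 UMI to 10 or more it was at 24.8, 41.7, 140 and 703 CPM in control cells and at 12.8, 53.4, 80.5 and 256 CPM in haplodeficient cells. Scnn1g had its highest value in the top class as well, at 254 CPM in control and 242 CPM in haplodeficient cells.

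Within each library, cells without an Aqp2 UMI were next set beside cells with at least 10. By the size rule 122 genes were higher without Aqp2 in the control library (3.24%) and 112 lower (2.97%), and in the haplodeficient library 37 were higher (0.995%) and 83 lower (2.23%). Of 3358 genes measured in both, 28 were higher in both libraries (0.834%), 27 lower in both (0.804%) and none went opposite ways. The shared higher genes were 27.5% of the control library's and 80.0% of the haplodeficient library's own, and the shared lower genes 31.4% and 39.7%. Beside Aqp2, the genes that were lower without Aqp2 in both libraries included Aqp3, Aqp4 and Avpr2 of water transport, Scnn1g, Calb1 and S100g, the retinoic acid synthesis gene Aldh1a3 and Car15, a membrane carbonic anhydrase gene. Those higher in both included the defence genes Lcn2 and Pigr, the iron oxidase gene Cp, the adhesion gene Vcam1 and Tnfrsf12a, the receptor of the cytokine TWEAK. Lcn2, which encodes an iron-sequestering defence protein, was at 1568 CPM in cells with at least 10 Aqp2 UMIs and 4601 CPM in those without, in the control library. In the haplodeficient library these values were 1966 and 5770 CPM. Pigr, the receptor that carries IgA across epithelia, was at 14.3 and 506 CPM in control cells and at 54.3 and 482 CPM in haplodeficient cells. The gate itself bears on this contrast, since cells without Aqp2 had to hold at least 10 Fxyd4 UMIs and the others could hold fewer, so these values are a description.

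**Figure D3:**
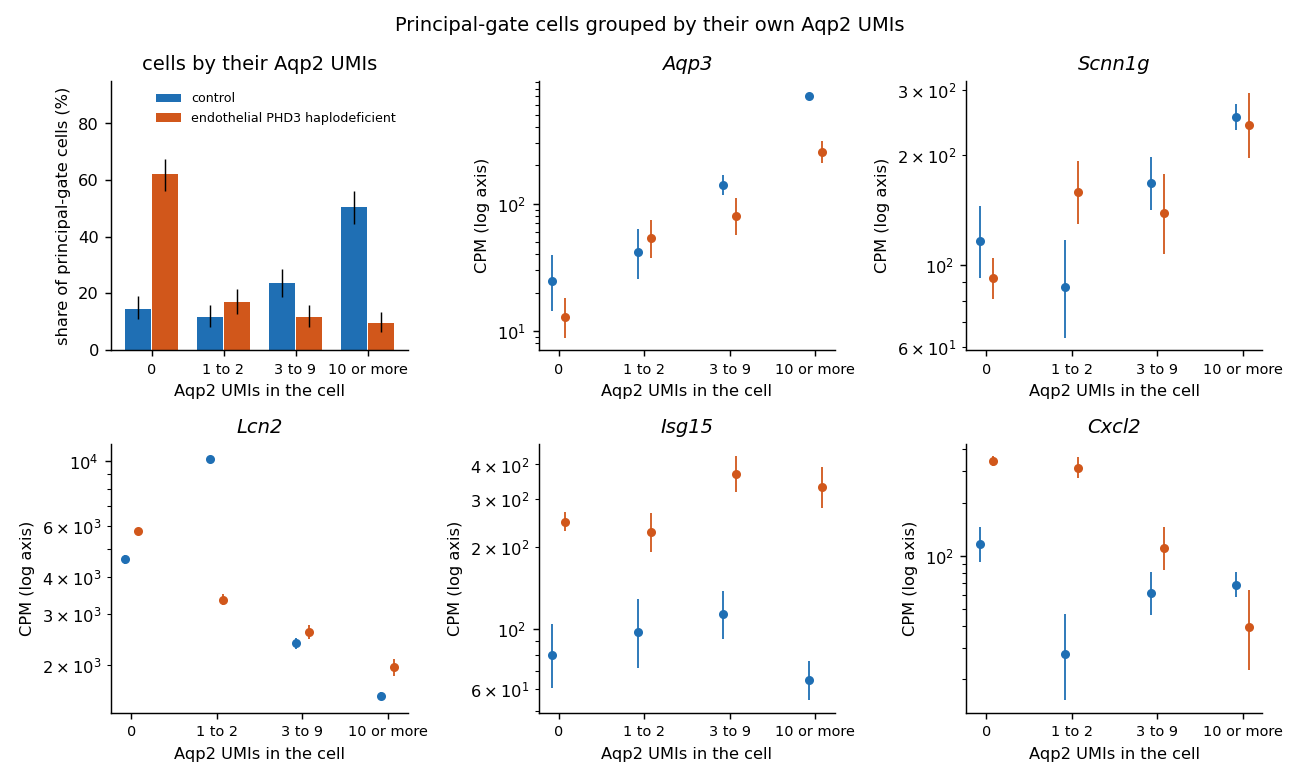
Share of principal-gate cells (y axis, percent, bars with exact 95% intervals) by Aqp2 UMIs per cell, and CPM (y axis, log axes, lines for exact 95% Poisson intervals) of Aqp3, Scnn1g, Lcn2, Isg15 and Cxcl2 in the same 4 classes, in each library. Aqp3 is highest at 10 or more Aqp2 UMIs in both libraries, Isg15 is higher in the haplodeficient library in every class, and Cxcl2 is higher there in every class but the top.

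The libraries were then compared within a class. In the class with at least 10 UMIs, Aqp2 itself was at 2923 CPM in control and 1741 CPM in haplodeficient cells, and 90.8% and 60.7% of the cells had connecting tubule genes, so the class was not of 1 make-up. Among cells without an Aqp2 UMI the ratio of Hsd11b2 was 0.921 (0.847 to 1.003), that of Scnn1g 0.789 (0.61 to 1.03) and that of Aqp3 0.517 (0.280 to 0.990), the last from 17 and 33 UMIs. Among cells with at least 10 UMIs they were 0.720, 0.952 (0.760 to 1.18) and 0.365 (0.296 to 0.445), so the interval lay below 1 in both classes for Aqp3 and included 1 in both for Scnn1g. Klk1 had ratios of 0.436 and 0.0852. Median log2 ratios of the sodium list were -0.20 and -0.39 in the classes without Aqp2 and with at least 10 UMIs, beside -0.03 and 0.08 for all genes. Those of the water list were -0.08 and 0.05, from 6 and 13 measured genes. In the class without Aqp2, the channel genes Aqp2, Aqp3 and Aqp4 fell short of the gene minimum and are not in that median. With the 4 classes given the same weights in both libraries, Aqp3 had a ratio of 0.42, Hsd11b2 0.858, Scnn1g 0.96 and Calb1 0.918, and the sodium median was -0.21. Aqp4 then turned to 1.28. Klk1 had a ratio of 0.342. Of these transport genes, Aqp3 and Klk1 were past the size rule after the weighting, and Klk1 had not been before it.

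Genes of the interferon response lay on 1 side. All 15 measured genes, of 31 listed, were higher in the haplodeficient library, 9 were called higher, and the median was 1.01. Each of the 15 intervals lay above 1. Promoter sequence is shown for 4 of the genes at the higher level in the haplodeficient gate, each of which held a motif match. Interferon-regulated transcription factors and NF-kB are known to act at short elements close to the start site. The promoter of Ccl20, also at the higher level there, held no match over the same length and is not shown. The 150 bases before the RefSeq start (GRCm38.p6) are given 5′ to 3′ on the gene's strand. Capitals mark matches, on either strand, to GAAA, any 2 bases and GAAA, the core of the interferon-stimulated response element (ISRE), or in Cxcl10 to GGGANTTCC, an NF-kB motif. The regions were chr4:156200819-156200968 (minus strand), chr19:34583379-34583528 (plus), chr8:71537473-71537622 (minus) and chr5:92348890-92349039 (minus).
Isg15: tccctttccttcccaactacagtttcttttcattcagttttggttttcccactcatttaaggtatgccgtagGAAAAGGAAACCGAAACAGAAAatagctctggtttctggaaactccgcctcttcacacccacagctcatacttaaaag
Ifit3: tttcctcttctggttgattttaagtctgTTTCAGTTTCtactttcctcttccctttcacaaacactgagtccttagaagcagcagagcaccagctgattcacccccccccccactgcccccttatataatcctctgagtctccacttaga
Bst2: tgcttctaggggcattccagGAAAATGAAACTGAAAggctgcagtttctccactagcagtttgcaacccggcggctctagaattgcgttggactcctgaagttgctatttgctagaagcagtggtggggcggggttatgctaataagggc
Cxcl10: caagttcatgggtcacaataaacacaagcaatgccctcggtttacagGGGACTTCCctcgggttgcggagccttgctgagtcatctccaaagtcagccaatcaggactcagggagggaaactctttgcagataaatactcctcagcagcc

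The Isg15 capitals are 3 overlapping matches whose first bases lie 78, 72 and 66 before the start, those of Bst2 are 2 overlapping matches at 130 and 124, and that of Ifit3 is a single match at 122 on the reverse strand. Over the 250 bases before the start, 5 of the 11 interferon genes matched in RefSeq held the ISRE core (Bst2, Ifit1, Ifit3, Ifitm2 and Isg15), against 3.46% of all genes with such a window. GGGANTTCC was held by 2 of 15 matched chemokine and NF-kB genes, against 1.63% of all genes. The ISRE core was also held by 2 of these 15 genes (13.3%), Cxcl10 and Spp1. Cxcl10 thus held both motifs over the 250 bases, but its ISRE core is not within the bases shown above. A match describes these letters only, and was not tested as a binding site.

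Isg15, a ubiquitin-like modifier (chromosome 4, 156199424 to 156200818, minus strand), was at 80.5 CPM in control and 266 CPM in haplodeficient cells, a ratio of 3.30 (2.92 to 3.74), and 32.1% and 58.2% of cells held a UMI. Bst2, which encodes the virus-tethering protein tetherin, was at 102 and 277 CPM. Ifit3, which binds foreign RNA with other IFIT proteins, was at 25.3 and 77.4 CPM, a ratio that is uncertain because of its near-identical copy Ifit3b. The membrane protein genes Ifitm3 and Ifi27 were at 230 and 482 CPM and at 114 and 249 CPM. The intervals of these genes did not overlap between the libraries. Thinned to 2000 UMIs, Isg15 was detected in 11.3% of control and 28.5% of haplodeficient gated cells, beside 11.7% and 19.3% of macrophage-gate cells, which also make it. Free RNA of the haplodeficient library was richer in the same genes, with Isg15 at 157 CPM against 30.6 CPM in the control. Its estimated part in the gated cells' Isg15 was 3.95% and 4.98%, and with free RNA subtracted the list median was 0.97.

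The response was found at each level of Aqp2. Among cells without an Aqp2 UMI, Isg15 had a ratio of 3.08, Bst2 2.35 and H2-D1 1.67, and among cells with at least 10 UMIs these were 5.11, 3.15 and 3.36. All 14 interferon genes measured in the class without Aqp2 and all 16 in the class with at least 10 UMIs were above 0, with medians of 0.84 and 1.40, beside 47.4% and 57.1% of all genes. With the classes weighted alike the Isg15 ratio was 3.52. Irf1, a factor of the interferon-gamma response listed with the guanylate-binding proteins, was at 322 CPM in control and 254 CPM in haplodeficient cells over the whole gate, but had ratios of 1.33 (1.09 to 1.62) without Aqp2 and 1.04 (0.874 to 1.23) with at least 10 UMIs. Iigp1, an interferon-gamma-induced GTPase of the same list, was higher, at 29.0 and 97.5 CPM, and its relative Irgm1 had a ratio of 1.51.

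Class I antigen presentation showed the same direction, with 10 of 10 measured genes above 0, 4 called higher and a median of 0.95. H2-D1, a classical class I heavy chain gene, was at 509 CPM in control and 1231 CPM in haplodeficient cells, and Psmb8, an immunoproteasome subunit gene, was at 107 and 310 CPM. The ratio of H2-Q7 was 3.22, but H2-Q6 is nearly identical and the counts of the pair cannot be separated with certainty. Class II gave 1 measured gene, Cd74, the invariant chain, at 171 and 206 CPM. Free RNA accounted for an estimated 46.6% and 81.5% of that Cd74.

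Among 31 chemokine genes, 10 had enough counts, of which 9 were higher and 1 lower in the haplodeficient library, with 2 called higher and a median of 0.50. Cxcl10, which attracts CXCR3-bearing T cells (chromosome 5, 92346638 to 92348889, minus strand), was at 18.5 CPM in control and 116 CPM in haplodeficient cells, from 79 and 474 UMIs, a ratio of 6.26 (4.93 to 8.05). A single haplodeficient cell held 34.6% of its UMIs, and without the top cell of each library the values were 15.3 and 76.3 CPM, a log2 ratio of 2.00, and its mean then fell under the 50 CPM minimum for a call. Cxcl2, a neutrophil attractant (chromosome 5, 90903871 to 90905938, plus strand), was at 70.2 and 283 CPM, with a ratio of 4.03 (3.55 to 4.59), with an estimated 21.7% and 23.3% from free RNA. It was detected in 6.35% and 15.01% of thinned gated cells but in 55.8% and 57.7% of macrophage-gate cells, cells that make it, so this share is not read as expression by the gated cells. The related Cxcl1 was at 49.6 and 89.7 CPM. Cxcl16, a membrane-bound ligand of T cells, was at 180 and 269 CPM, and Cx3cl1, the tethered ligand of monocytes, was the 1 gene lower, at 67.2 and 46.4 CPM. Spp1, which encodes osteopontin, was at 4715 and 5078 CPM.

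Chemokine genes with counts in few cells stood on narrow ground. Ccl5, a T cell and monocyte attractant, is not in the list counted above and held 9 UMIs in the control and 526 in the haplodeficient gate, 61.4% of them in 1 cell. Without the top cells it was at 1.88 and 49.99 CPM, and in cells chosen on Hsd11b2 its log2 ratio was -0.43, the other way. Ccl2, the main attractant of classical monocytes, was at 14.98 and 43.5 CPM but was found in 6 and 5 cells, with 87.5% and 92.7% of its UMIs in 1 cell. Ccl20, the ligand of CCR6, fell short of the minimum mean of 50 CPM and is named because of its values. It held 27 and 267 UMIs in 5 and 22 cells, a ratio of 10.3 (6.94 to 16.0), and 70.4% of the control UMIs lay in 1 cell. Thinned to 2000 UMIs, Ccl20 was detected in 0.63% and 4.49% of gated cells, against 0.34% and 0.31% of macrophage-gate cells. The cytokine gene Tnf, also short of the minimum, was at 24.3 and 59.4 CPM, in 45 and 85 cells.

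The NF-kB target list had no common direction, with 5 of 12 measured genes above 0, 7 below, 1 called higher and a median of -0.05. Vcam1, the adhesion molecule of injured tubule cells, was the called gene, at 44.9 CPM in control and 96.3 CPM in haplodeficient cells. Without the top cell of each library its log2 ratio was 0.97, just short of a call. The Vcam1 ratio was 1.04 (0.82 to 1.35) in cells without an Aqp2 UMI and 0.377 (0.135 to 0.854) in cells with at least 10. Nfkbia, the inhibitor that NF-kB itself induces, was at 412 and 615 CPM. Icam1, another adhesion molecule gene, was at 144 and 100.4 CPM, and the transcription factor gene Cebpb had a ratio of 0.68. Chemokine and NF-kB genes together had 14 of 22 above 0 and a median of 0.19.

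Of the chemokine and NF-kB genes, Cxcl2, Cxcl1, Cebpb and Nfkbiz had ratios on opposite sides of 1 by the level of Aqp2. Cxcl2 had a ratio of 2.94 in cells without Aqp2 and 0.574 (0.320 to 0.963) in cells with at least 10 UMIs, and the values for Cxcl1 were 2.44 and 0.429 and those for Cebpb 1.70 and 0.528. Nfkbiz, an NF-kB cofactor gene, had 1.29 and 0.80. Each of these intervals left out 1, but the genes were picked for this pattern and the difference between the classes was not tested. In the top class the 28 haplodeficient cells held 16 UMIs of Cxcl2 and 9 of Cxcl1. Cxcl10 had ratios of 4.96 and 0.451 (0.118 to 1.23), whereas Cxcl16 had 0.948 and 1.52 and Icam1 0.877 and 0.535. Chemokine and NF-kB medians were 0.05 and -0.33, beside -0.03 and 0.08 for all genes. Cxcl2 was at the higher level in the haplodeficient library in the 3 classes under 10 Aqp2 UMIs and at the lower level in the top class.

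**Figure D4:**
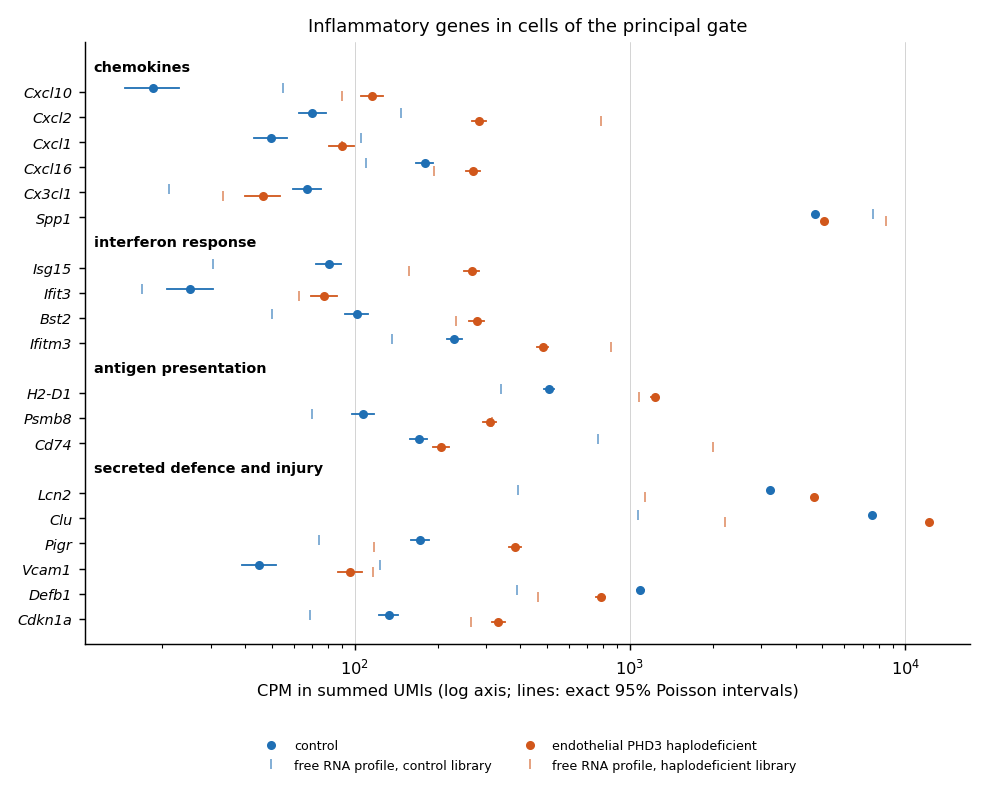
CPM in summed UMIs of principal-gate cells (x axis, log axis) for inflammatory genes, with points for each library, lines for exact 95% Poisson intervals and ticks for the gene's level in that library's free RNA. Cxcl10 lies at 18.5 and 116 CPM in the control and haplodeficient libraries, the interferon genes shown are all higher in the haplodeficient library, and Cd74 lies well under its free RNA levels.

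Secreted defence genes were abundant in the gate, and 4 of the 6 measured were higher in the haplodeficient library, with 1 called and a median of 0.35. Lcn2 (chromosome 2, 32384633 to 32388252, minus strand) was at 3221 CPM in control and 4650 CPM in haplodeficient cells. Wfdc2, an epithelial protease inhibitor gene, was at 1934 and 3227 CPM, and Pigr, the called gene, at 173 and 383 CPM. Defb1, the defensin of the distal nephron, was lower, at 1089 and 782 CPM. With the Aqp2 classes weighted alike, Lcn2 had a ratio of 0.903 and Pigr of 0.928, so neither was then higher in the haplodeficient library. Lcn2 had a ratio of 1.25 in the class without Aqp2 and in the class with at least 10 UMIs, and the weighted value also took in the classes between. For Lcn2, 1 control cell held 15.6% of the control UMIs. Without the top cell of each library its ratio over the whole gate, unweighted, was 1.55 (1.52 to 1.59). Pigr had ratios of 0.951 and 3.80 in those classes.

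Tubular injury genes gave 14 of 18 above 0, 2 called higher and a median of 0.50. Cdkn1a, the cell cycle inhibitor p21, was at 133 CPM in control and 332 CPM in haplodeficient cells, and S100a6, a calcium-binding protein gene of injured epithelium, was at 869 and 1816 CPM. Clu, the secreted chaperone clusterin, was at 7577 and 12212 CPM. Clu had ratios of 1.11 and 1.59 in the classes without Aqp2 and with at least 10 UMIs. Of 19 immediate early and stress genes 10 were above 0 and 1 was called: Atf3, a stress-induced transcription factor gene, was at 1020 and 2074 CPM, while Egr1 and Zfp36, both early response genes, each had a ratio of 0.61. Of the hypoxia list, 3 of 7 genes were above 0, none was called and the median was -0.48. Ndrg1, a HIF target gene, was at 734 and 393 CPM, and Hif1a at 261 and 170 CPM.

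Among the 10 highest ratios of all called genes, 8 were interferon, antigen presentation or chemokine genes named above. Of the other two, Emp2, an epithelial membrane protein gene, was at 76.5 CPM in control and 221 CPM in haplodeficient cells. Rpl29, a ribosomal protein gene with many pseudogene copies, was at 116 and 467 CPM and is uncertain for that reason. Among the 10 lowest were Aqp2, Aqp3 and Car15, the last at 406 and 25.2 CPM. Kap, an androgen-regulated proximal tubule gene, was at 792 and 4.89 CPM, and free RNA could account for all of it in both libraries. The mitochondrial gene mt-Nd3 was at 3552 and 1012 CPM. The 13 mitochondrially encoded genes had a median of -0.89, and 4 were called lower.

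The gate was last set beside the other distal cells of the same libraries, taken without overlap as intercalated cells (226 control and 145 haplodeficient), distal convoluted cells (351 and 99) and thick limb cells (793 and 835). The median log2 ratios of all genes there were 0.07, 0.14 and 0.11. Interferon medians were 1.10, 1.21 and 1.13 beside 1.01 in the principal gate, and class I medians 1.01, 1.12 and 0.92 beside 0.95. The genes with enough counts differed between gates, and the interferon medians rested on 15, 6 and 5 genes beside 15. Isg15 had ratios of 3.75, 3.79 and 2.40, so the higher interferon genes were a feature of all 4 gates. Chemokine medians were 0.60, 0.59 and 0.11 beside 0.50, and Cxcl10 had ratios of 1.64, 1.36 and 1.48 beside 6.26. Without the top cell of each library the Cxcl10 ratio of the principal gate was 4.995. In its cells without an Aqp2 UMI the ratio was 4.96, and in those with at least 10 it was 0.451 (0.118 to 1.23). The connecting tubule calcium list was low in distal convoluted cells too, with a median of -1.13 beside -1.46. It stood at -0.42 in intercalated cells. In thick limb cells 2 of its genes were measured, Kl at -0.75 and S100g at 0.93, with a median of 0.09. The sodium median was -0.25, -0.15 and -0.02 beside -0.64, and the transcription factor median 0.21, 0.06 and 0.11 beside -0.46. These gaps depended on the make-up of the principal gate. Its sodium median was -0.20 in cells without an Aqp2 UMI and -0.39 in cells with at least 10. It was -0.21 with the classes weighted alike and -0.16 without cells holding connecting tubule genes. Its transcription factor median was -0.02 without an Aqp2 UMI and -0.19 with at least 10. Aqp3 in intercalated cells was at 53.4 CPM in control and 52.9 CPM in haplodeficient cells, a ratio of 0.99 (0.76 to 1.29). Hsd11b2 had ratios of 1.19, 1.45 and 1.63, all above 1, beside 0.617. The mt-Nd3 ratios of 0.30, 0.26 and 0.19 were beside 0.28. These differences between gates have no test, and the Aqp2 and Fxyd4 limit of the other gates kept their levels of those genes low. That limit can also bear on genes that went with Aqp2 in the principal gate, such as Aqp3 and Scnn1g.

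**Figure D5:**
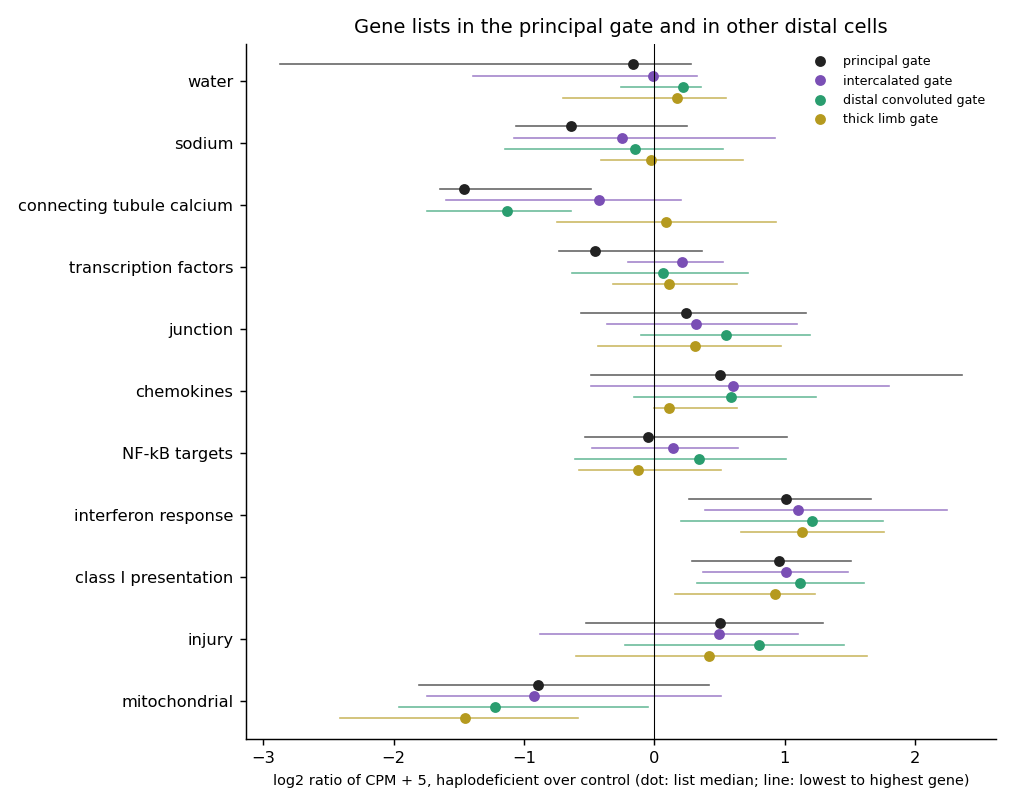
Median log2 ratio of CPM + 5, haplodeficient over control (dots, x axis), and the range from lowest to highest gene (lines) for 11 gene lists (y axis) in the principal, intercalated, distal convoluted and thick limb gates. The interferon and class I dots of all 4 gates lie near 1, whereas the sodium and transcription factor dots of the principal gate, at -0.64 and -0.46, lie to the left of the other gates. Principal-gate cells without an Aqp2 UMI, not drawn apart, had sodium and transcription factor medians of -0.20 and -0.02. Those with at least 10 had -0.39 and -0.19.

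Markers of other cell types were read in the same gated cells. The 10 macrophage markers summed to 94.1 CPM in control and 295 CPM in haplodeficient cells, all 10 were higher in the latter and none was at 0. Their sum in free RNA was 1328 and 6762 CPM, and their highest sum in 1 gated cell was 44 and 564 UMIs. The 5 neutrophil markers summed to 12.6 and 11.97 CPM, with Retnlg at 0 in both libraries and Cxcr2 at 0 in the control. The 9 lymphocyte markers summed to 6.32 and 18.6 CPM, with Cd3e, Cd3d, Trbc2, Nkg7, Gzma and Ms4a1 at 0 in control cells and Gzma at 0 in haplodeficient cells. The part of macrophage RNA in the chemokine values was not tested. Proximal tubule markers summed to 1357 and 198 CPM, against 16685 and 1297 CPM in free RNA. Intercalated cell markers summed to 32.8 and 16.9 CPM, with Slc4a1 and Hmx2 at 0 in the haplodeficient library. Endothelial markers were alike, at 84.5 and 78.9 CPM.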

How the data were processed

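Single-cell suspensions of mouse kidney were sequenced from droplet 3′-end libraries, 1 per group, per the labels' protocols. The deposited values were raw UMI counts for each gene in each barcode, which the authors obtained with Cell Ranger 4.0, per the file headers, on build mm10, per the submitters' processing notes. The annotation release is not given in the sources used here. Coordinates came from GENCODE M21 (GRCm38) and promoters from RefSeq. The libraries held 134190236 UMIs in 1342632 barcodes (control) and 114668145 UMIs in 1430043 barcodes (haplodeficient). Barcodes with at least 500 UMIs, 200 genes and at most 50% mitochondrial UMIs were retained, and the mitochondrial limit removed 574 and 30. Whether reads of overlapping or near-identical genes were split is not given in the sources used here.

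UMIs of gated cells were summed per library (4272214 and 4093474) and given as CPM with exact 95% Poisson intervals. Ratios have exact conditional binomial intervals, and shares exact Clopper-Pearson ones. UMI intervals cover counting error only. Thinned shares are the expected share of cells with at least 1 UMI when each is drawn down to 2000 UMIs, which left out 2 control cells. Free RNA shares were the median, over 41 and 56 markers of other classes, of observed over expected UMIs. Markers with few expected UMIs, and Slc12a1, Slc12a3 and Atp6v1g3, were not used. Markers with more observed than expected UMIs were also left out, which can only lower the median. Doublets were ranked by Scrublet in scanpy 1.11.5 at 0.8% per 1000 cells, which marked 715 and 804 retained cells. Python 3.11.15, numpy 2.4.6, scipy 1.17.1 and pandas 2.3.3 were used, and the interval code was checked on simulated data.

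The members of the gate and all gene lists were chosen with earlier results of these data known. Named were the gate's genes, the genes of largest ratio or level in each list, the 10 highest and 10 lowest ratios, the 15 leading genes and Egln3; any others were chosen after their values were seen. Alternatives covered the gate's threshold, mitochondrial limit, doublets, connecting tubule genes, depth, scaling, added CPM, gene minimum and free RNA.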

Additional observations from a re-analysis of the deposited data

How the results depend on the processing

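The median of the interferon list stayed between 0.84 and 2.21 under all alternatives, and that of the sodium list stayed below 0. Medians that moved were as follows. With the gate at 5 UMIs the sodium median was -0.45, and with the gate at 30 UMIs the water median was -0.49. At 0.5% of the cell's UMIs, which left 73 and 34 cells, the sodium median was -0.98 and the interferon median 2.21. The water median was -0.42 without doublet-marked cells, -0.51 with CPM without mitochondrial UMIs, -0.42 with the mean of the cells' own CPM and -0.48 with free RNA subtracted. The sodium median was -0.16 without cells holding connecting tubule genes and -0.35 with genes eligible from 10 CPM. Of the alternatives added after the data were seen, the gate on Fxyd4 alone gave a sodium median of -0.46, cells without an Aqp2 UMI -0.20 and the Aqp2 classes weighted alike -0.21. Cells with at least 10 Aqp2 UMIs gave medians of 0.054 (water), -0.39 (sodium), -0.33 (chemokine and NF-kB) and 1.40 (interferon). The chemokine and NF-kB median also turned, to -0.045, with the classes weighted alike.

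Counts of called genes, higher and lower, were 82 and 99 with the gate at 30 UMIs, 181 and 287 at 0.5%, 65 and 109 without connecting tubule genes, 65 and 97 in depth-matched cells, 94 and 163 from 10 CPM, 33 and 102 without mitochondrial UMIs, 109 and 113 with at least 10 Aqp2 UMIs, 18 and 49 without an Aqp2 UMI and 19 and 35 weighted alike, where intervals took the weighted UMIs as counts. The gate's share of cells, control and haplodeficient, was 4.00% and 4.05% at 5 UMIs, 1.56% and 1.12% at 30 UMIs, 0.77% and 0.34% at 0.5%, 3.82% and 2.92% with a mitochondrial limit of 25%, 0.47% and 0.68% without connecting tubule genes, 1.40% and 1.46% in depth-matched cells, 2.68% and 2.84% on Fxyd4 alone and 3.62% and 3.17% on Hsd11b2. The cause was not tested, beyond fewer cells or genes where an alternative removes them.

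Of 112 named genes, 44 were called, and 11 to 44 of these stayed called under an alternative. Reversed log2 ratios were, at 0.5%, 2.92 for Slc14a2, 0.21 for Aqp4, -1.39 for Cxcl2 and -1.02 for Vcam1; without connecting tubule genes, 0.94 for Egfem1 and -0.45 for Sprr2f; and on Hsd11b2, -0.43 for Ccl5. With at least 10 Aqp2 UMIs they were 0.087 for Slc14a2, 0.40 for Aqp4, -0.85 for Cxcl10, -0.73 for Cxcl2 and -1.16 for Vcam1. Without an Aqp2 UMI they were 0.020 for Kcnj1, -0.072 for Pigr, 0.70 for Ntn4 and 0.75 for Egfem1. With the classes weighted alike they were 0.34 for Aqp4 and -0.11 for Pigr. No paired analysis was possible because each group had 1 library and no result came from a test. Sampling depth limits genes under 30 UMIs, such as Ccl20 in the control.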

Other observations

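Further genes, picked for this pattern, took opposite sides by the level of Aqp2 when the libraries were compared within a class. Each interval left out 1, and the difference between classes was not tested. Plet1, a surface protein gene of ductal epithelium, had a haplodeficient over control ratio of 0.868 in cells without an Aqp2 UMI and 2.62 in cells with at least 10. Krt19, a keratin of ducts, had ratios of 0.872 and 1.85. Scnn1a, level in the gate as a whole, had ratios of 1.33 and 0.621, and Defb1 had 1.48 and 0.817.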
